A study of Mus musculus with 4 samples.

Results

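The 10 genes described here were the SOCS family (*Cish* and *Socs1* to *Socs7*, 8 genes) and the PIM kinase genes *Pim1* and *Pim2*, taken by gene symbol from the 24346 genes measured in *in vitro* MDSCs. These cells are immature myeloid cells grown from BM cells of female C57BL/6J mice aged 6 to 8 weeks. BM cells were cultured for 4 days with 40 ng/ml GM-CSF alone (Control, 2 libraries) or with 40 ng/ml GM-CSF and 5 ng/ml G-CSF (G-CSF, 2 libraries), so GM-CSF was present in both groups. The comparison asks how adding G-CSF to GM-CSF altered the expression of these genes at a single time point. The cells were not sorted, and the replicates are described as biological without saying whether they came from separate mice.

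Cytokine receptors such as those for GM-CSF and G-CSF have no kinase of their own. They work through bound Janus kinases (JAKs), which phosphorylate STAT transcription factors, and STAT5 and STAT3 then switch on genes that include the SOCS and PIM genes. The SOCS proteins act as negative feedback: an SH2 domain binds a phosphorylated receptor or JAK, and a SOCS box recruits elongins and a cullin to mark the bound protein for degradation. PIM kinases act in the other sense, since they are active as soon as they are made and promote survival, growth and cell cycle entry.

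STAT dimers bind the palindrome TTCNNNGAA, and interferon regulatory factors bind repeats of the type GAAANNGAAA. RefSeq promoter windows of GRCm38.p6, from 250 bases before to 50 after the annotated start, were found for 6 of the 10 members (*Cish*, *Socs1*, *Socs3*, *Socs4*, *Pim1* and *Pim2*), and none for *Socs2*, *Socs5*, *Socs6* and *Socs7*. The stretches that held a match are shown because they contain the kinds of site through which these feedback genes are known to be switched on. Capitals mark TTCNNNGAA in *Cish* and *Socs3*, and a pair of overlapping GAAANNGAAA matches in *Socs1*. All stretches run 5′ to 3′ on the strand of the gene.

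*Cish*, chr9:107296654-107296683, plus strand: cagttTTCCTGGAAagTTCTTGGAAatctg

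*Socs1*, chr16:10785552-10785676, minus strand: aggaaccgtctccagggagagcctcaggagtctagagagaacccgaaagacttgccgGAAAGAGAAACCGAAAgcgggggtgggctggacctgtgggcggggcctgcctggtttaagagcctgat

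*Socs3*, chr11:117969442-117969566, minus strand: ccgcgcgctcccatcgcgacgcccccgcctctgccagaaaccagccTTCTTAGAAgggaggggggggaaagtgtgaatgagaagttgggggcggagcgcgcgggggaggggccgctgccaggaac

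In the *Cish* window, the matches TTCCTGGAA and TTCTTGGAA began 11 bases apart, at positions 1 to 9 and 12 to 20 from the RefSeq start. A pair of TTCNNNGAA matches starting within 20 bases of each other occurred in 0.046% of the 32851 promoter windows, and at least 1 match in 8.3%. *Socs3* held 1 match, TTCTTAGAA, at positions -154 to -146 from its annotated start. The overlapping pair in *Socs1* lay at positions -83 to -68. A pair of GAAANNGAAA matches (either strand) starting within 20 bases of each other, overlapping or not, occurred in 0.134% of windows. Neither motif was found in the windows of *Socs4*, *Pim1* or *Pim2*, and TTCNNNNGAA (6.95% of windows) and TATAAA (either strand, 13.62%) were found in no member's window. A match describes letters and not a bound site.

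Expression was given as FPKM (fragments scaled to transcript length and to the number of mapped reads), and the steps between low values put the depth at an estimated 12425000 to 15625000 mapped reads per library. All 10 members were among the 11953 genes with enough estimated reads to be tested. Levels in FPKM spanned a wide range within the family. *Pim1* was the highest in every library and stood at the 95.6th percentile of mean level among the genes tested. *Cish* followed at the 93.8th percentile, and *Socs1*, *Socs2* and *Socs3* came next in Control. *Socs7*, *Socs5* and *Pim2* were the lowest, and in Control the values of *Socs7* overlapped those of *Socs5*, and those of *Socs5* overlapped those of *Pim2*. In G-CSF, *Socs1* still exceeded *Socs2* in both libraries, but the place of *Socs3* was open, because its values overlapped those of both.

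**Figure D1:**
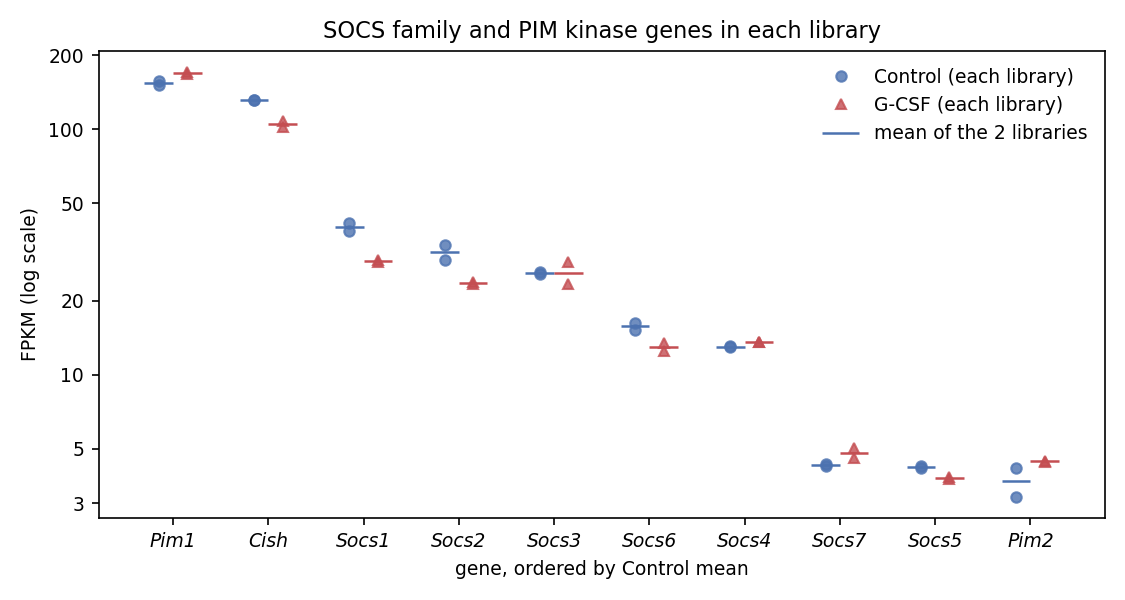
FPKM of each gene (log scale) in each of the 2 Control (circles) and 2 G-CSF (triangles) libraries, with horizontal lines at the group means. *Cish*, *Socs1*, *Socs2* and *Socs6* lie lower in both G-CSF libraries than in both Control libraries, while the *Socs3* values of the groups overlap.

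G-CSF lowered 4 of the 10 members, *Cish*, *Socs1*, *Socs2* and *Socs6*, and raised none past the test (limma on log2(FPKM + 0.1), two-sided, Benjamini-Hochberg adjusted p under 0.05 over all genes tested). At an unadjusted p under 0.05, 1 member was higher (*Pim1*) and 4 were lower, and voom on estimated reads gave the same counts at its adjusted p. Among all 11953 genes tested, voom called 1974 higher and 1506 lower. By the limma adjusted p, 11.5% of all genes tested were lower with G-CSF, 12.6% were higher and 24.1% changed in either direction. The unadjusted rule is looser, and more than 24.1% of all genes tested passed it. None of the members reached a fold change of 2, which together with the adjusted p was met by 1.42% of genes (0.527% higher and 0.895% lower). The median log2 fold change of the members was -0.07, against 0.001 for all genes tested. In 9 of the 10 members the values of the groups did not overlap, 5 lower and 4 higher with G-CSF, and 66.3% of all genes tested had groups that did not overlap (32.6% lower and 33.7% higher).

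*Cish* encodes CIS, the SOCS protein that binds receptors signalling through STAT5, among them those of the GM-CSF family. It lies on chromosome 9 of GRCm38 from 107296026 to 107302784. This span, like those of the other members, is from GENCODE, and here it begins before the RefSeq start of the promoter window. Its level was 131.8 and 131.3 FPKM in the Control libraries and 102.1 and 108.1 FPKM in the G-CSF libraries. Both G-CSF libraries were thus below both Control libraries, and the Control libraries were nearly equal. Means were 131.5 ± 0.361 FPKM in the Control libraries and 105.1 ± 4.28 FPKM in G-CSF (SD, n = 2 each). The fitted difference was -0.32 on the log2 scale (standard error 0.0464, limma adjusted p = 0.00696), or 0.799 times the Control level (95% interval 0.74 to 0.863). Between 3211 and 4912 estimated reads per library stood behind these values. In the annotation 7.93% of the 75-base windows of *Cish* transcripts are shared with *Gm17040* and *Gm17041*, which overlap it on the other strand, so a small part of its reads is uncertain.

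*Socs1* encodes an inhibitor that binds JAKs directly through a kinase inhibitory region and is best known for restraining interferon signals. It lies on chromosome 16 from 10782240 to 10785536, and none of its 75-base windows occurs in another gene. *Socs1* stood at 41.7 and 38.5 FPKM in the Control libraries and at 28.7 and 29.3 FPKM in the G-CSF libraries. The groups were well apart and the G-CSF libraries lay close together. The group means of 40.1 ± 2.24 and 28.99 ± 0.443 FPKM (SD, n = 2 each) were -0.47 apart on the log2 scale (standard error 0.0581, limma adjusted p = 0.00513). This was the largest fall among the members, to 0.724 times Control (95% interval 0.657 to 0.798), on 917 to 1504 estimated reads per library.

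*Socs2*, known as a regulator of growth hormone signalling and, like *Cish*, as a STAT5 target, lies on chromosome 10 from 95385362 to 95417180. Its values were 33.9 and 29.3 FPKM in the Control libraries and 23.9 and 23.4 FPKM in the G-CSF libraries. The Control libraries differed from each other more than the G-CSF libraries did, but both exceeded them. Means were 31.6 ± 3.25 FPKM for Control and 23.6 ± 0.3 FPKM for G-CSF (SD, n = 2 each), and the gene fell by 0.41 on the log2 scale (standard error 0.0775, limma adjusted p = 0.0142), on 576 to 912 estimated reads per library. The fitted ratio to Control was 0.751 (95% interval 0.66 to 0.854).

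*Socs3* encodes the inhibitor that binds the G-CSF receptor and the shared IL-6 receptor chain, and it is a known STAT3 target. It lies on chromosome 11 from 117966079 to 117970047, a GENCODE span that also begins, on its strand, before the RefSeq start of the promoter window. *Socs3* stood at 25.7 and 26.2 FPKM in the Control libraries and at 23.3 and 28.7 FPKM in the G-CSF libraries. The G-CSF libraries lay on either side of the Control libraries. Its log2 fold change was -0.004 (standard error 0.0976, limma adjusted p = 0.983), and the 95% interval of the ratio, 0.848 to 1.17, leaves room for a change of that size in either direction. The sign depended on the libraries used: without G-CSF replicate 1 the log2 fold change was 0.15, and without G-CSF replicate 2 it was -0.15. With Control replicate 2 left out it was 0.01. Whether *Socs3* differed from *Cish*, *Socs1* or *Socs2* in its response was not tested.

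The remaining SOCS genes have been linked mainly to growth factor and insulin receptors and are less strongly induced by cytokines. Among them, *Socs6* was called lower, from 15.2 and 16.3 FPKM in Control to 12.5 and 13.4 FPKM in the G-CSF libraries. Its log2 fold change of -0.28 (standard error 0.0745, limma adjusted p = 0.0404) was the weakest call. Dropping any 1 library gave an adjusted p of 0.0591 to 0.159, and without a filter on low values it was 0.077. The estimated reads of *Socs6* lay between 124 and 1347 per library, depending on the transcript assumed. In the annotation 5.24% of its 75-base windows also occur in *Gm9449*, and *AC122398.2* and *AC122398.3* overlap its span on the same strand. *Socs5* stood at 4.24 and 4.16 FPKM in the Control libraries and at 3.78 and 3.83 FPKM in the G-CSF libraries, and the difference of -0.14 on the log2 scale missed the threshold (limma adjusted p = 0.375). *Socs4* stood at 12.9 and 13.04 FPKM in the Control libraries and at 13.7 and 13.6 FPKM in the G-CSF libraries (log2 fold change 0.07, 95% interval -0.08 to 0.23, limma adjusted p = 0.45). *Socs7* stood at 4.33 and 4.23 FPKM in the Control libraries and at 5.01 and 4.60 FPKM in the G-CSF libraries (log2 fold change 0.16, limma adjusted p = 0.303).

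Summed over the 8 SOCS family genes, expression was 269.7 and 263.0 FPKM in the Control libraries and 212.9 and 225.1 FPKM in the G-CSF libraries. *Cish* made up 48.9% and 49.9% of this sum in Control and 47.9% and 48.0% with G-CSF. *Cish*, *Socs1* and *Socs2* together held 207.3 and 199.1 FPKM in the Control libraries and 154.6 and 160.9 FPKM in the G-CSF libraries, so most of the difference in the sum lay in these genes.

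*Pim1*, on chromosome 17 from 29490753 to 29496112, stood at 156.4 and 150.8 FPKM in the Control libraries and at 167.5 and 171.0 FPKM in the G-CSF libraries. Both G-CSF libraries exceeded both Control libraries, by a small margin. Its means were 153.6 ± 3.99 and 169.2 ± 2.46 FPKM (SD, n = 2 each). The log2 fold change was 0.14 (standard error 0.0432, 95% interval 0.04 to 0.24), and the limma adjusted p of 0.0592 missed the threshold. With voom on estimated reads it was 0.0204. An overlapping gene on the other strand, *Gm26885*, shares 7.12% of the 75-base windows of *Pim1*.

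*Pim2*, on the X chromosome from 7878262 to 7883432, was far lower, at 4.19 and 3.19 FPKM in the Control libraries and 4.47 and 4.43 FPKM in the G-CSF libraries. The Control libraries differed from each other by more than the group means did, and neither G-CSF library lay below them. Its log2 fold change of 0.28 (standard error 0.149, limma adjusted p = 0.219) rested on between 41 and 127 estimated reads per library, depending on the transcript assumed. The value depended on the Control libraries: it was 0.47 without Control replicate 1 (limma adjusted p = 0.0793) and 0.08 without Control replicate 2 (limma adjusted p = 0.723). *Pim1* supplied 97.4% to 97.9% of the summed FPKM of *Pim1* and *Pim2* in every library. *Pim3*, the remaining PIM gene and not a member of this set, rose from 9.45 and 9.43 FPKM to 11.8 and 11.3 FPKM, or by 0.29 on the log2 scale (standard error 0.0737, limma adjusted p = 0.0338).

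**Figure D2:**
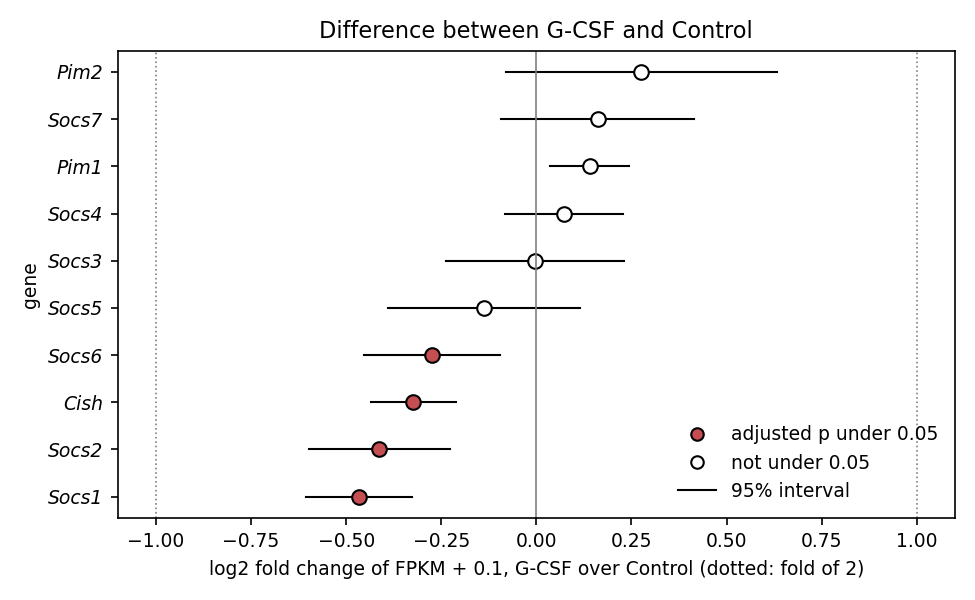
Log2 fold change of log2(FPKM + 0.1) for each gene, G-CSF over Control, with its 95% interval from limma. Filled points have an adjusted p under 0.05, and dotted lines mark a fold of 2. The filled points (*Socs1*, *Socs2*, *Cish*, *Socs6*) lie between -0.47 and -0.28, and no interval reaches a fold of 2.

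Ratios taken within a library do not depend on how libraries are scaled to each other. *Pim1* exceeded *Cish* by 1.19 and 1.15 times in Control and by 1.64 and 1.58 times with G-CSF. *Socs3* stood at 0.616 and 0.681 times the FPKM of *Socs1* in Control and at 0.813 and 0.98 times with G-CSF. In both ratios the G-CSF libraries lay above the Control libraries. These ratios partly repeat the values above, since *Cish* and *Socs1*, by which they divide, were lower in both G-CSF libraries. The difference in these ratios was not tested. An exact permutation test, two-sided, cannot go below p = 0.333 with 2 libraries a group.

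**Figure D3:**
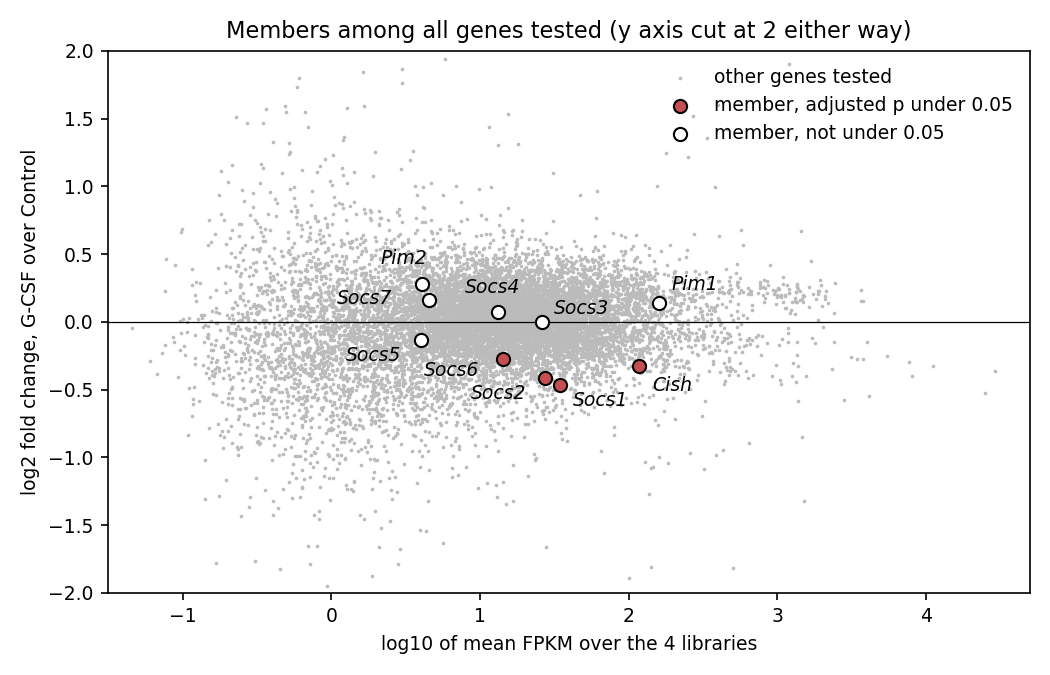
Each gene tested, by the log10 of its mean FPKM over the 4 libraries and its log2 fold change, with the members marked (filled where the adjusted p was under 0.05). The members lie within 0.47 of 0 on the log2 scale, and 14 other genes fall outside the plotted range of 2 either way.

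Upstream of the feedback genes, 13 of 14 cytokine receptor genes listed were tested, 4 fell and none rose past the limma test, with a median log2 fold change of -0.15. At an unadjusted p under 0.05, as with voom at its adjusted p, 6 were lower and 1 was higher. The chains specific to the cytokines used here were among them. *Csf2ra*, which encodes the GM-CSF receptor alpha chain, stood at 137.1 and 136.0 FPKM in the Control libraries and at 96.9 and 102.7 FPKM in the G-CSF libraries (log2 fold change -0.45, limma adjusted p = 0.00359). *Csf3r*, the receptor of G-CSF itself, stood at 50.2 and 48.3 FPKM in the Control libraries and at 34.6 and 40.3 FPKM in the G-CSF libraries (log2 fold change -0.40, limma adjusted p = 0.0158). The IL-10 receptor gene *Il10ra* fell as well, by 0.32 on the log2 scale. For this list and those below, the shares of all genes tested were 11.5% lower and 12.6% higher by the limma test.

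Of the 11 JAK and STAT genes, 5 fell and 1 rose, with a median log2 fold change of -0.22. *Jak2*, the kinase used by both receptors, fell by 0.38 on the log2 scale (limma adjusted p = 0.00844), and *Tyk2* by 0.30 (adjusted p = 0.00995). *Jak3*, which pairs with the common gamma chain, rose from 7.23 and 5.996 FPKM to 13.8 and 12.4 FPKM, a log2 fold change of 0.98 (limma adjusted p = 0.00445). *Stat5a*, *Stat5b* and *Stat3* did not pass, at -0.11, -0.11 and 0.11.

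A SOCS box acts through elongins, a cullin and other parts of a ubiquitin ligase. Of 10 genes for such partners tested, 1 rose and none fell past the limma test, at an unadjusted p under 0.05 or with voom, and the median log2 fold change was 0.05. The gene that rose was *Eloc* (listed under its older symbol *Tceb1*), which encodes elongin C (59.0 and 57.3 FPKM in Control, 72.2 and 69.0 FPKM in the G-CSF libraries, limma adjusted p = 0.0112). Among 15 tested genes for other proteins with a SOCS box, none passed the limma adjusted p in either direction (median -0.03), with 3 lower and 0 higher at an unadjusted p under 0.05 and 1 lower with voom. Other restraints of cytokine signals, such as phosphatases, PIAS proteins and DUSP genes, were mixed, with 5 of 21 lower and 1 higher (median -0.10). *Ptprc* (the phosphatase CD45, -0.37), *Dusp6* (a phosphatase of ERK, -0.36) and *Sh2b3* (the adaptor LNK, -0.32) fell, while *Dusp2* rose from a low level (0.794 and 0.850 to 1.71 and 1.41 FPKM), a call that voom did not make.

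Among other genes known to respond to STAT5, 7 of 16 fell and 1 rose (median -0.23). *Ccnd1* (cyclin D1) fell by 0.65 on the log2 scale (limma adjusted p = 0.00439) and *Gadd45g*, a stress-induced growth regulator, fell by 0.58 (adjusted p = 0.00697). *Myc* went the other way, from 54.7 and 52.3 FPKM to 79.1 and 70.1 FPKM (log2 fold change 0.48, limma adjusted p = 0.00668). Genes known to respond to STAT3 were split, with 5 of 15 higher and 4 lower (median -0.14). *Gfi1* (a transcriptional repressor active within the granulocyte lineage, 0.76) and *Birc5* (survivin, 0.28) rose, and *Il1rn* (the IL-1 receptor antagonist, -0.44) fell.

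Of 18 genes for *Pim3* and PIM substrates, 3 rose and 2 fell (median -0.04). Besides *Pim3* these included *Cdc25a*, the phosphatase that opens the cell cycle (0.44, limma adjusted p = 0.0093), *Cbx3* (0.33, adjusted p = 0.00704) and *Cdkn1a*, the cell cycle inhibitor p21 (-0.28, adjusted p = 0.0142).

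**Figure D4:**
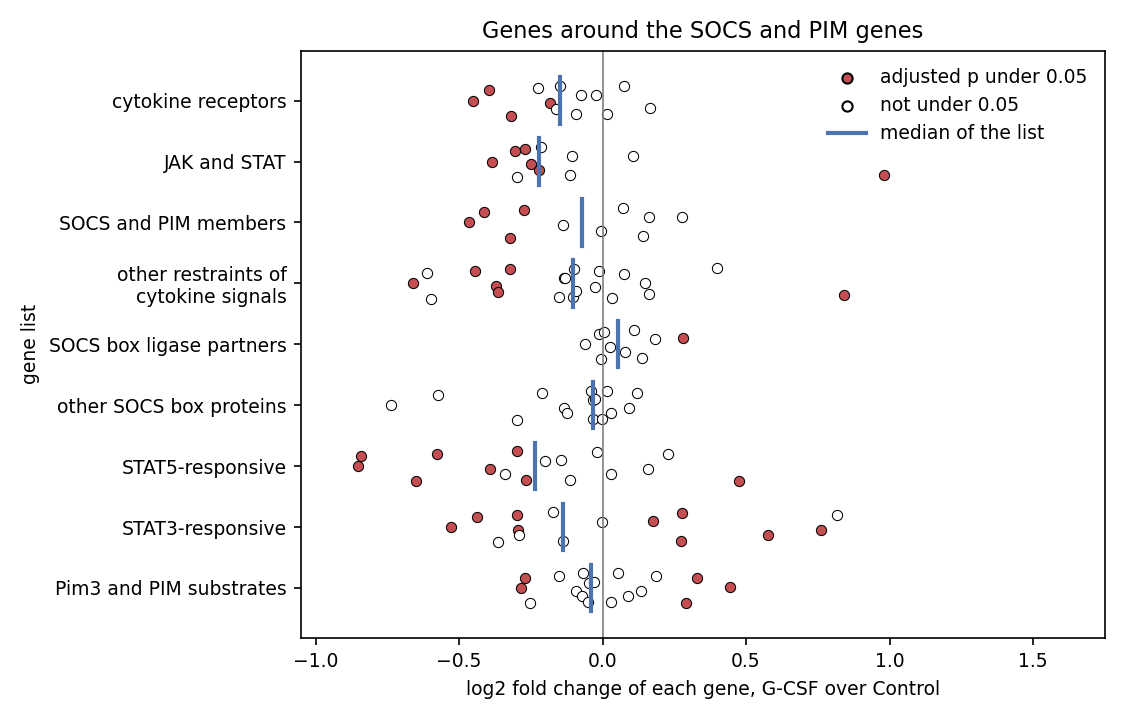
Log2 fold change (G-CSF over Control) of each tested gene of the members and of 8 lists of genes around them, with vertical bars at the list medians and filled points where the adjusted p was under 0.05. The medians run from -0.23 (STAT5-responsive genes) to 0.05 (SOCS box ligase partners), and *Jak3* at 0.98 is the farthest point to the right.

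The groups also differed in markers of the cell types a BM culture can hold. All 11 dendritic cell markers summed to 2286 to 2675 FPKM in the Control libraries and 1219 to 1514 FPKM in the G-CSF libraries (5 of 9 tested lower, led in level by *Cd74* and *H2-Ab1*). *Cd74* and *H2-Ab1* made up most of these sums. *Flt3*, *Zbtb46*, *Ccr7* and *Xcr1* did not pass (limma adjusted p = 0.22, 0.252, 0.0745 and 0.815). The 9 mast cell and basophil markers summed to 140.4 to 141.6 FPKM in the Control libraries and 88.0 to 97.4 FPKM in the G-CSF libraries (5 of 7 tested lower, *Mcpt4* at 0 in all libraries, *Mcpt8* and *Prss34* highest). Eosinophil markers, led by *Prg2* and *Ear2*, summed to 379.1 to 517.6 and 287.8 to 322.6 FPKM (2 of 5 tested lower). Neutrophil markers (14 genes, led by *S100a8* and *S100a9*) summed to 70659 to 81248 and 55368 to 55557 FPKM, with 8 lower and 3 higher of 14 tested. *S100a8* and *S100a9* made up most of these sums, and *S100a8* itself was not called (limma adjusted p = 0.0853). The 3 that rose encode primary granule proteins made by granulocyte precursors, *Mpo* (log2 fold change 1.52), *Prtn3* (1.43) and *Elane* (0.99). The genes of later granules and of mature cells that fell included *Camp* (-1.81), *Retnlg* (-1.81), *Ltf* (-1.32) and *Mmp9* (-1.08). *Mmp8*, on the same list, did not pass (-0.098, limma adjusted p = 0.469), and its groups overlapped. Monocyte and macrophage markers (12 genes, led by *Ly6c2* and *Cd68*) summed to 1936 to 2013 and 1734 to 1819 FPKM, with 5 lower and 1 higher of 11 tested. Of 6 general myeloid markers, 4 were lower and none higher by limma (1 higher at an unadjusted p under 0.05, and 1 with voom), with a median log2 fold change of -0.36. Those lower were *Cd33* (-0.61), *Lyz2* (-0.40), *Ptprc* (-0.37) and *Itgam* (-0.35), and *Itgam* still stood at 395.2 FPKM or above in every library.

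T and NK cell markers summed to 4.06 FPKM or less (*Ncr1* at 0), B cell markers to 5.55 FPKM or less, and erythroid markers to 4.30 FPKM or less in each library. The submitters' extraction text names liver tissue, but 6 of 8 hepatocyte markers, *Alb* among them, were at 0 in every library. The part of the shifts in cell type markers, the general myeloid markers included, in the values of *Cish*, *Socs1*, *Socs2* and *Socs6* was not tested. In bulk libraries such as these, fewer cells of a type and less RNA per cell cannot be told apart. In the study's flow cytometry of such cultures, the percentages of MDSCs, dendritic cells and macrophages were unaffected by G-CSF. The share of monocytic MDSCs rose there and that of polymorphonuclear MDSCs fell. The paper does not say whether those cultures gave these libraries.

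**Figure D5:**
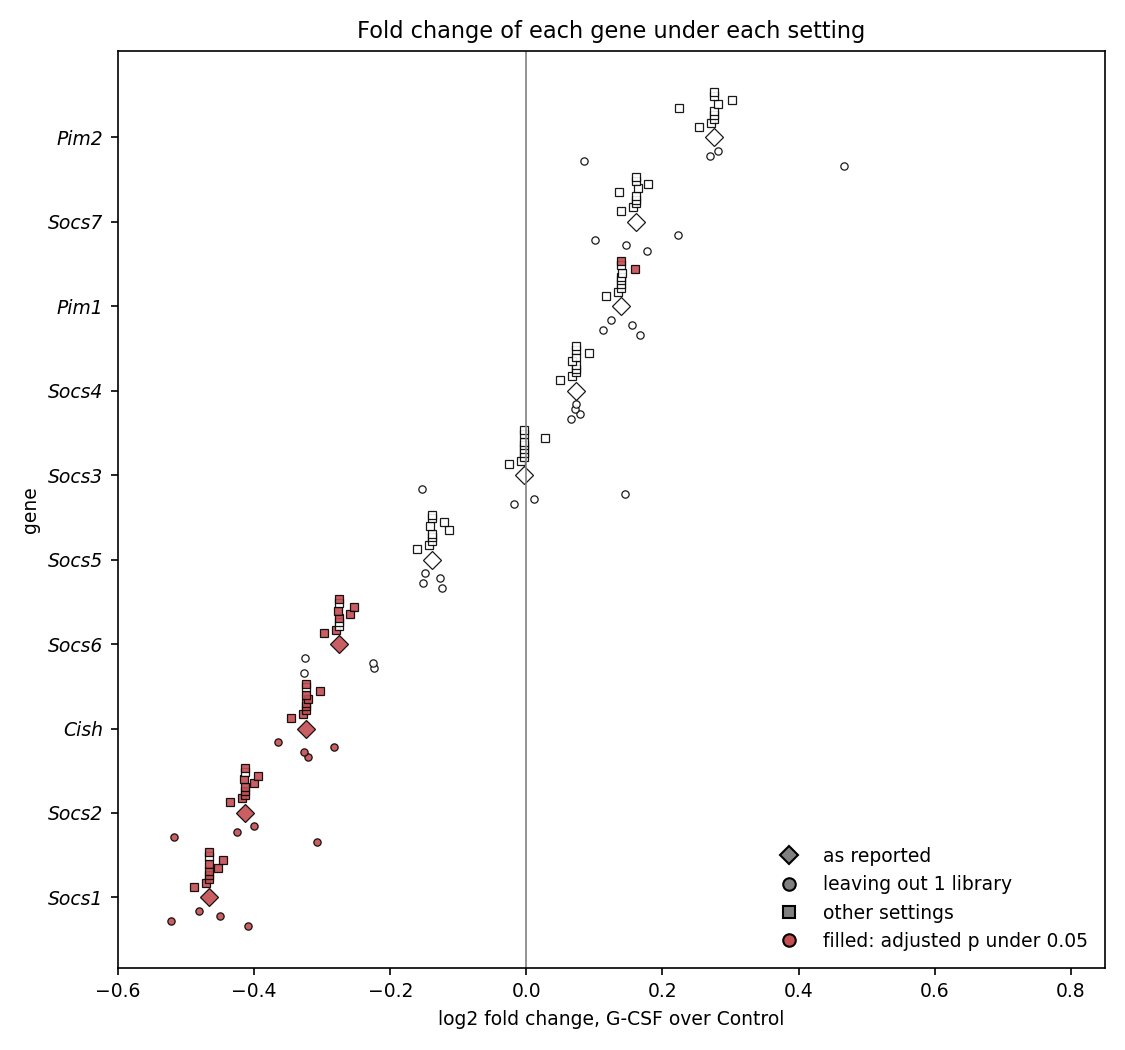
Log2 fold change of each gene as reported (diamonds), with each of the 4 libraries left out in turn (circles) and under 10 other settings (squares), filled where the adjusted p was under 0.05. *Cish*, *Socs1* and *Socs2* stay filled without any 1 library and open in 1 other setting, limma without the trend, and *Socs6* is open without any 1 library.

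*Cish*, *Socs1* and *Socs2* kept an adjusted p under 0.05 with each library left out in turn (0.0118 to 0.0267, 0.00755 to 0.0181 and 0.00879 to 0.0407, limma, the lone library of a group being assumed to vary like the other group). They lost it only when limma was run without the trend of the variance with the level (adjusted p = 0.063, 0.054 and 0.0753). The number of all genes with an adjusted p under 0.05 then fell from 2881 to 110.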

How the data were processed

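Per the labels, total RNA was made into stranded mRNA libraries, sequenced as single 75-base reads. The submitters' processing notes name TopHat2 2.0.13, Bowtie2 2.2.3, SAMtools 0.1.19, Cufflinks 2.2.1 and mm10 (the build of GRCm38). The authors deposited 1 table of FPKM values per library. No header names the unit, which was taken from the tools and the values, and the annotation and strand setting are not given in the sources used here. Reads were estimated from FPKM, transcript length less 210 bases, and depth. The length was the median of a gene's GENCODE transcripts, using only those linked to RefSeq where present. The depth was that at which most low values fell on whole reads (67.1% of 5705 values within 0.05 reads, against 10.0% by chance). The read ranges given for members instead span both the libraries and the shortest and longest coding transcripts used. Since these are not counts, the test was run on log2 values.

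A gene was tested if 2 or more libraries had 10 estimated reads or more and the 4 together had 15, and 1723 genes with no length or one of 310 bases or fewer were left out. G-CSF was compared with Control by limma 3.58.1 (R 4.3.3, lmFit and eBayes with trend) on log2(FPKM + 0.1), which understates fold changes of low genes, with Benjamini-Hochberg adjustment. Values were not rescaled. P-values rest on the spread between these 4 libraries. That spread is taken only in part from the gene itself, and eBayes draws the rest from genes of like level. The steps were tested on simulated data.

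The members and lists were chosen with earlier results of these data known. The result of 1 gene list is not reported here. The text names every member, up to 3 genes of each pathway list with the smallest p among those past the adjusted p, and the 2 highest genes of each marker list. A few others (the STAT genes, general myeloid markers, neutrophil granule genes, dendritic cell markers, *Dusp2*, *Pim3* and genes at 0) were named after their values were seen. Scripts used python 3.11.15, numpy 2.4.6, pandas 2.3.3 and matplotlib 3.10.9.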

Additional observations from a re-analysis of the deposited data

How the results depend on the processing

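The 4 calls among the members (*Cish*, *Socs1*, *Socs2* and *Socs6*, all lower) were made again under 10 other settings and without each of the 4 libraries. Limma without the trend left 0 members past the adjusted p, 0 of them lower, with 63 genes past adjusted p and fold change of 2 (170 as reported) and 110 past the adjusted p alone (2881 as reported). *Pim1* passed, making 1 member higher, with voom and with the replicate block. The block fit made more wrong calls on simulated data than the fit without it. Those data were drawn with no effect of the replicate number, so they cannot judge the block for these libraries. The count of 170 became 111 for genes of at least 1 FPKM and 56 with a pseudocount of 1 FPKM, and that of 2881 became 1626 without a filter and 1549 to 1906 with each library left out (153 to 183 genes with the fold). Leaving out a library left 3 members called, all lower, in each case, *Socs6* being the one lost. *Socs6* was also lost without a filter and with a mean of at least 0.3 FPKM (adjusted p = 0.0544). The log2 fold change of *Socs3* turned to 0.028 with voom, and ranged from -0.15 to 0.15 with each library left out. No other member changed sign. The cause of these differences was not tested. Rescaling moved the median log2 fold change of all genes by under 0.1, to -0.0205 (upper quartile) and -0.00332 (median ratio), and voom gave 0.0216. With upper-quartile scaling 1311 of all genes were higher and 1572 lower at the adjusted p, against 1508 and 1373 as reported.

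The labels give both groups the numbers 1 and 2 but do not say that a number marks a shared mouse or day. Libraries of the same number deviated together from their group means (r = 0.263 across genes, which are not independent). With the replicate block, 185 genes passed both thresholds and 4013 the adjusted p, and 4 members were lower. The log2 fold change of *Pim2* ranged from 0.08 to 0.47 with a library left out, and was called in none of these fits.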

Other observations

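After the pair of TTCNNNGAA matches at the RefSeq start of *Cish*, genes were grouped by their number of matches, as a description. Matches anywhere in a promoter window were counted, close together or not. Of 50 tested genes with 2 or more matches in a promoter window, 7 (14.0%) were lower with G-CSF at an adjusted p under 0.05 and 4 (8.0%) were higher, with a median log2 fold change of -0.03. *Cish*, which prompted the grouping, is among these 50 and among the 7 lower. Of 731 genes with 1 match, 86 (11.8%) were lower and 87 (11.9%) higher, and of 8456 genes with none, 968 (11.4%) were lower and 1078 (12.7%) higher. These shares lie near those of all genes tested, 11.5% lower and 12.6% higher.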
